A study of Mus musculus with 13 samples.

Results

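The distal forelimb (DFL) was set against the forebrain (FB) of E12.5 mouse embryos by ATAC-seq. Here Tn5 transposase cuts open chromatin and leaves adapters at the cuts, so that accessible regions appear as peaks of cut sites. Of the 13 libraries of the series, 8 entered the comparison: 2 replicates each of wild-type (wt) DFL, 542 DFL, wt FB and 542 FB. All embryos were of the B6CBAF1 background, and each library was made from 50000 cells, pooled from several embryos. The 542 embryos were homozygous for a single copy of II1, a limb enhancer of the HoxD locus, placed with an HBB promoter and a LacZ reporter in the regulatory domain telomeric to HoxD (T-DOM). The 542 line is 1 insertion allele, and here the genotypes served only as a check on the tissue comparison. A pool of dissected tissue holds several cell types, so that a larger share of a cell type and a more open region within its cells cannot be told apart.

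The 50000 strongest accessible regions of each library were joined where they overlapped by at least 1 bp, on chromosomes 1 to 19 and, on chromosome 2, below 75 Mb. This gave 96244 merged regions. A region in the lists of all 4 DFL libraries and of no FB library is called DFL-only below, the converse FB-only, and a region in all 8 lists shared. There were 10331 DFL-only regions (10.7% of merged regions), 10958 FB-only regions (11.4%) and 20859 shared regions (21.7%). These shares follow from the rule and are given with no test. The estimated depth was 40.2 to 54.5 M tags in DFL (M, 1000000) and 51.4 to 70.7 M in FB, and its part in the results was not tested.

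Cells of the distal forelimb at this stage are mostly mesenchyme that condenses into the cartilage of the digits. Posterior genes of the HoxA and HoxD clusters, above all Hoxa13 and Hoxd13, encode homeodomain transcription factors that pattern the hand plate. The forebrain at this stage holds dividing neural progenitors, in which SOX and POU factors are active, and young neurons. Promoters of broadly used genes are open in most tissues, whereas distal enhancers are often open in a single tissue or a few, and many carry the short sequences that the factors of that tissue bind.

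The following stretches show the chromatin that was open in a single tissue. Each runs 60 bases to either side of the summit of the region, on the + strand of GRCm38. Capitals mark motifs, on either strand, whose share differed more than 2-fold between DFL-only and FB-only regions. The first 3 stretches are from the DFL-only regions with the highest mean fold, the ratio of tags at the summit to the local background of the same library.
Promoter of Fgf23, chr6:127072977-127073097: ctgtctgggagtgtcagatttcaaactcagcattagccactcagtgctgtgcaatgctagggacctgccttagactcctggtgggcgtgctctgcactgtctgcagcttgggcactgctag
Intergenic, nearest to Nphp4, chr4:152799576-152799696: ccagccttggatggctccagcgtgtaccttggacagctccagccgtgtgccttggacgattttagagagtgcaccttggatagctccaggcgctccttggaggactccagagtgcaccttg
Intergenic, nearest to Vmn2r73, chr7:85840541-85840661: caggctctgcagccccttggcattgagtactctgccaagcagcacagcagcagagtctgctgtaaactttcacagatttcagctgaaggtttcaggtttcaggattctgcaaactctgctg
None of these 3 held a motif to be marked. The FB-only regions with the highest mean fold gave the next 3 stretches, and the stretch nearest to Pabpc4l held the homeodomain letters TAATTA.
Intergenic, nearest to Pabpc4l, chr3:47668996-47669116: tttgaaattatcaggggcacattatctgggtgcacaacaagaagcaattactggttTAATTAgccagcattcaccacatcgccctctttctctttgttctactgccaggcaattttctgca
Intergenic, nearest to Basp1, chr15:24567133-24567253: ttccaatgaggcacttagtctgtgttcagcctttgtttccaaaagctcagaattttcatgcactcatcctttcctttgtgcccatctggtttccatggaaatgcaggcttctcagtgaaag
Intron, nearest to Olig3, chr10:19310158-19310278: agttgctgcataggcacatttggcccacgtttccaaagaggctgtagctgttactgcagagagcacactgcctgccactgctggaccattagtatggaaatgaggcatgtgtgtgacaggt
The strongest DFL-only region nearest to Hoxd13, Evx2 or Lnpk is shown because it lies on the centromeric side of the HoxD cluster, where the enhancers of the digits are found.
Intergenic, nearest to Lnpk, chr2:74381052-74381172: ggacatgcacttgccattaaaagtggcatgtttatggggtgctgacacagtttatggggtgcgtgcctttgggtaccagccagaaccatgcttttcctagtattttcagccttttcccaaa
The last 6 stretches were chosen after motif shares had been seen, to show the motifs with the widest ratio between the sets. They are the 3 strongest distal DFL-only regions with the posterior HOX letters TCGTAAA and the 3 strongest distal FB-only regions with the POU letters ATGCAAAT in the stretch.
DFL-only, nearest to Aga, chr8:53171814-53171934: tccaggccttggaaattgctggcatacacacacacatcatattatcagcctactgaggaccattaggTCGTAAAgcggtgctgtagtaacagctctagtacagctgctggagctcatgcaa
DFL-only, nearest to Crnn, chr3:93162629-93162749: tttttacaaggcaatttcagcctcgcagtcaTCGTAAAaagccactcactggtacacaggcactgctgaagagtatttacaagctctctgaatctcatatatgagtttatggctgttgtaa
DFL-only, nearest to Nr2f2, chr7:70650171-70650291: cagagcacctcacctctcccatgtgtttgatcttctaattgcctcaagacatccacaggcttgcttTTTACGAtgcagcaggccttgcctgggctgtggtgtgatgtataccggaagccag
FB-only, nearest to Pcdh7, chr5:57475135-57475255: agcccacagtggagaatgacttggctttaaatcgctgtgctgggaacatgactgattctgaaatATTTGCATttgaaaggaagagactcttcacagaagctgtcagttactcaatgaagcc
FB-only, nearest to Inhbb, chr1:119388796-119388916: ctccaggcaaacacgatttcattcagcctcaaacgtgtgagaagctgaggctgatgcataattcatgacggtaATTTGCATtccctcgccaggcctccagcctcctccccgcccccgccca
FB-only, nearest to Chodl, chr16:78827880-78828000: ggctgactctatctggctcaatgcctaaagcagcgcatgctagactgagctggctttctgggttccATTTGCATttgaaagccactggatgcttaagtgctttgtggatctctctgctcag
Mean fold over the 4 libraries was 13.70 ± 0.555 (SD, n = 4) for the region near Aga, 12.65 ± 1.44 for that near Crnn and 12.28 for that near Nr2f2, where the libraries ran from 10.7 to 13.5. It was 19.10 ± 1.33 near Pcdh7, 18.51 ± 0.910 near Inhbb and 17.91 ± 0.569 near Chodl. The motif was in capitals in all 6 by choice.

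To ask whether the accessible regions separated the tissues, the Jaccard index of each pair of lists was taken, that is, the length in bp shared by 2 lists over their joint length. The index was 0.667 on average over the 12 pairs of the same tissue (range 0.607 to 0.720) and 0.353 over the 16 pairs of DFL with FB (range 0.347 to 0.359). The difference of 0.314 was the largest among the 35 partitions of the 8 libraries into 4 and 4 (exact permutation test, two-sided, p = 0.0286, which no partition of this design can undercut). Genotype entered to a lesser extent. Pairs of wt with 542 within a tissue had an index of 0.607 to 0.628 in DFL and 0.684 to 0.696 in FB, below the same-genotype pairs of 0.650 to 0.678 in DFL and 0.718 to 0.720 in FB. All 12 values within a tissue were above the 16 values between tissues.

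**Figure D1:**
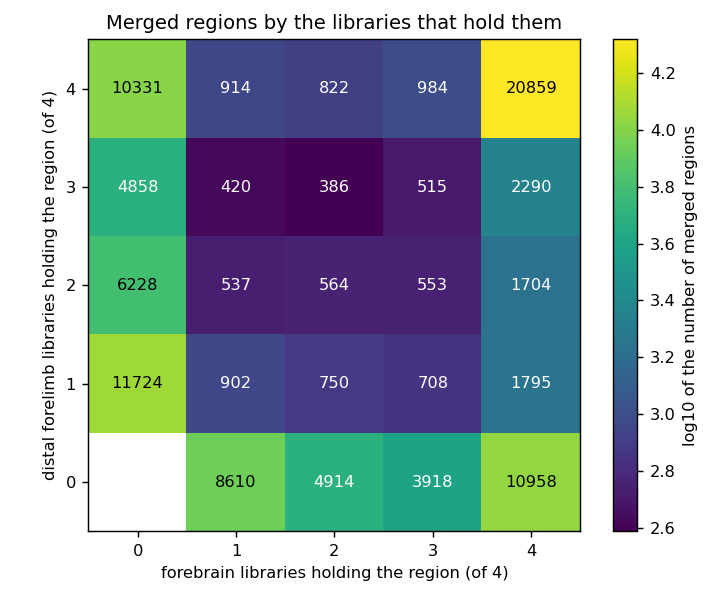
Number of merged regions (cell text, colour on a log10 scale) by how many of the 4 distal forelimb libraries (y axis) and of the 4 forebrain libraries (x axis) hold the region. Regions in all 4 libraries of a single tissue (10331 and 10958) and in all 8 (20859) outnumber the classes with at least 1 library of each tissue short of all 8, which hold 386 to 2290 regions each. Regions in 1 DFL library and no FB library (11724) outnumber either tissue-only set, and 8610 are in 1 FB library and no DFL library.

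Genotypes were then used as independent libraries. Among wt libraries alone, 15937 merged regions were in both DFL lists and in no FB list, and 64.8% of them (10331) had the same pattern among the 542 libraries, where 15.5% of all merged regions had it. For FB the numbers were 16122 regions in wt, of which 68.0% (10958) had the same pattern in 542, against 16.1% of all merged regions. The opposite pattern in 542 was found for 14 of the wt DFL regions and for 16 of the wt FB regions. Tissue differences seen in wt were thus nearly never turned around in 542 libraries.

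Absence from a list does not mean that no peak was called. At any rank, 68.3% of DFL-only regions (7051) were called in none of the 4 FB libraries, and 64.1% of FB-only regions (7025) in none of the 4 DFL libraries. Conversely 5.47% of DFL-only regions and 3.91% of FB-only regions were called, below the list, in all 4 libraries of the other tissue. A wt DFL library from an earlier sample, which the rule had not used, held 89.9% of DFL-only regions and 2.87% of FB-only regions in its 50000 strongest. The proximal forelimb (PFL) stood between. Of the DFL-only regions, 52.5% (5427) were in the lists of all 4 PFL libraries and 20.5% (2120) in none of them. Of the FB-only regions, 1.15% (126) were in all 4 PFL lists and 89.4% (9793) in none. Of the regions that parted DFL from FB, 5427 were therefore among the strongest in both parts of the limb. Most regions outside the PFL lists still had a PFL peak of lower rank, since 677 DFL-only regions (6.55%) were called in no PFL library.

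Tissue-only regions lay far from gene starts. The median distance to the nearest start of a protein-coding gene was 67700 bp for DFL-only and 76792 bp for FB-only regions, against 483 bp for shared regions and 40292 bp for all merged regions. Only 2.57% of DFL-only regions (266) and 2.60% of FB-only regions (285) were within 1 kb of a start, called promoter regions here, as were 52.6% of shared regions and 14.5% of all. Beyond 100 kb from any protein-coding start were 40.4% of DFL-only, 43.7% of FB-only and 10.9% of shared regions, against 31.4% of all merged regions. Introns held 48.1% of DFL-only and 48.8% of FB-only regions, against 41.2% of all merged regions. Intergenic regions were 46.0% and 45.0%, against 40.0% of all. Among regions farther than 1 kb from a start, the median G+C content within 100 bp of the summit was 46.8% in DFL-only, 46.3% in FB-only and 51.7% in shared regions. The tissues were alike in these descriptions, and both differed from the shared regions in the same direction.

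Promoter regions had a like share in every list. They were 25.40%, 25.55%, 25.51% and 25.44% of the list in the DFL libraries (wt replicates, then 542) and 25.23%, 25.32%, 25.40% and 25.64% in the FB libraries. The groups overlapped, and the difference of 0.0730 percentage points did not pass the test (two-sided exact permutation test over 70 assignments, p = 0.486). This holds for lists of equal length: with all regions of a −log10 q of at least 10, the difference was 2.52 points (exact permutation p = 0.114).

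**Figure D2:**
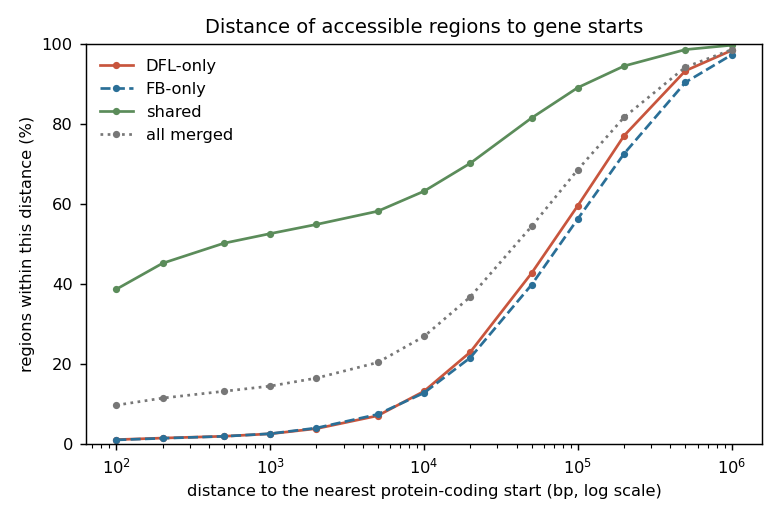
Percent of regions (y axis) whose strongest summit lies within a distance of the nearest protein-coding start (x axis, bp, log scale), for DFL-only, FB-only, shared and all merged regions. At 1000 bp the shared curve stands at 52.6% and the 2 tissue-only curves at 2.57% and 2.60%.

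Each region was assigned to the protein-coding gene with the nearest start, which marks its place and does not name its target. Of 15313 genes with a merged region, 28.3% (4330) had at least 1 DFL-only region and 28.0% (4291) at least 1 FB-only region, and 2403 had both. The genes with the most DFL-only regions were Adgrl2 (23), Adgrl3 (22), Flrt2 (21), Robo1 (20), Slc10a2 (19), Ptprd (19), Kif26b (19), Cdh11 (18), Tenm4 (17) and Lrig3 (17). Those with the most FB-only regions were Zfp608 (32), Tenm2 (30), Robo1 (28), Ptprd (26), Tenm4 (24), Olfm4 (23), Nr2f1 (22), Tenm3 (21), Adgrl3 (21) and Efna5 (20). Adgrl3, Robo1, Ptprd and Tenm4 stood in both. Many of these genes had large numbers of merged regions, so that the DFL-only share was 13.5% for Tenm4 (17 of 126), 14.3% for Ptprd and 15.9% for Adgrl2 (23 of 145), against 10.7% over all regions, but 37.3% for Kif26b and 34.0% for Lrig3. FB-only shares ran from 14.1% for Tenm3 to 37.2% for Zfp608, against 11.4%. Several of these genes encode adhesion and guidance receptors and lie in large intervals: the DFL-only regions of Adgrl2 spanned 2239 kb and the FB-only regions of Tenm3 2403 kb. Other genes were less even. Kif26b had 19 DFL-only and 6 FB-only regions, Lrig3 had 17 and 4, Zfp608 had 6 DFL-only and 32 FB-only, and Nr2f1, a transcription factor that patterns the cortex, had 7 and 22. At least 5 of a single kind and none of the other were found for 68 genes in DFL and for 63 in FB.

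Lists of genes with known roles were read against the 10.7% and 11.4% of all merged regions. The posterior Hox and Evx genes had 27 merged regions, of which 8 (29.6%) were DFL-only and 1 was FB-only. Promoter regions of Hoxa9, Hoxa13, Hoxd11, Hoxd12 and Hoxd13 were DFL-only, and those of Hoxa10, Hoxd8 and Hoxd10 were in neither tissue-only set nor shared. In these dense clusters the nearest start can be that of a neighbour. Limb mesenchyme transcription factors had 385 merged regions, with 71 (18.4%) DFL-only and 40 (10.4%) FB-only, and 15 of the 23 genes had more DFL-only regions against 4 with more FB-only regions. Hand2, which acts in the posterior limb bud, had 10 DFL-only and no FB-only region, Tbx15 had 5 and 0, Twist1 had 4 and 0, and Prrx2 had 3 and 0. The 4 with the opposite order were Zfhx4, with 5 and 11, Lhx2, with 1 and 7, Sall3, with 4 and 5, and Prrx1, a marker of limb mesenchyme, with 0 and 1. Lhx2 acts in the forebrain as well as in the limb and belongs to both lists.

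Cartilage and joint genes had 426 merged regions, 75 (17.6%) DFL-only and 42 (9.86%) FB-only. Of the 21 genes with a region, 14 had more DFL-only than FB-only regions and 5 had fewer. Osr1, a factor of connective tissue and joint precursors, had 12 DFL-only and no FB-only region, and Trps1, mutated in a skeletal syndrome, had 14 and 5. Sox9, the master factor of cartilage that also acts in neural progenitors, had 9 DFL-only and 12 FB-only regions. Sox5, with 8 and 10, Matn1, with 2 and 4, Nog, with 0 and 2, and Comp, with 0 and 1, had the same order as Sox9. Limb signalling genes had 315 merged regions, 61 (19.4%) DFL-only and 31 (9.84%) FB-only. More DFL-only than FB-only regions were found for 10 of the 17 genes and fewer for 6. Among the former, Fgf10, a growth factor that the mesenchyme sends to the overlying ectoderm, had 9 and 0, Bmp4 had 4 and 0, and Aldh1a2, an enzyme of retinoic acid synthesis, had 4 and 0. Gli3, the transcriptional mediator of Hedgehog signals in limb and brain, had 14 and 7. Among the latter, the Hedgehog receptor Ptch1 had 1 and 4, Wnt7a, which is made in dorsal ectoderm, 0 and 4, and Rspo2 1 and 2, while Fgf8, Wnt3 and Shh had 0 and 1 each. The promoter region of Bmp4 was DFL-only and that of Shh, which is secreted by ventral cells of the brain and by the posterior limb bud, was FB-only.

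Forebrain lists had the opposite order. Pallial transcription factors had 544 merged regions, 52 (9.56%) DFL-only and 115 (21.1%) FB-only, and 16 of the 21 genes had more FB-only than DFL-only regions. Foxp2, a forkhead factor of the developing brain, had 13 FB-only and 4 DFL-only regions. Bcl11a went the other way, with 7 FB-only and 11 DFL-only regions. Subpallial genes had 280 merged regions, 25 (8.93%) DFL-only and 56 FB-only. Of the 19 genes with a region, 11 had more FB-only than DFL-only regions and 5 had equal numbers. Nkx2-1, a factor of the ventral forebrain, had 5 FB-only and no DFL-only region. More DFL-only regions were found for 3 genes: Isl1 (8 DFL-only and 6 FB-only), Dlx6 (2 and 0) and Sp9 (1 and 0). Eye field and diencephalon genes had the smallest contrast, with 37 (12.1%) DFL-only and 54 (17.6%) FB-only of 306, and Irx1 had 11 DFL-only against 5 FB-only regions. Neural progenitor genes had 464 merged regions, 41 (8.84%) DFL-only and 103 (22.2%) FB-only. Sox2, which maintains neural progenitors, had 17 FB-only and 4 DFL-only, and Rfx4 had 7 and 1, while Nfib had 11 of each. Neuronal genes had 613 merged regions, 43 (7.01%) DFL-only and 120 (19.6%) FB-only, and 19 of 20 genes had more FB-only regions. Stmn2 was the exception, with 1 FB-only and 2 DFL-only regions. Promoter regions that were FB-only belonged to Neurog1, Nr2f1, Six3, Hes5, Rfx4, Zic1, Zic4, Elavl3, Nhlh1, Myt1l and Cntn2 in these lists.

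Markers of other cell types of the tissues were counted in the same way. Limb ectoderm genes had 16 (11.7%) DFL-only and 15 (10.9%) FB-only of 137 regions, and muscle precursor genes had 7 (8.43%) and 9 (10.8%) of 83, both near the background. Blood and endothelial genes had 31 (16.5%) DFL-only and 14 (7.45%) FB-only of 188 regions, of which Ptprc gave 10 and 6 and Cdh5 8 and 2. The strongest DFL-only region of this list lay 407136 bp from Cdh5 and the strongest FB-only region 517923 bp from Ptprc. Of the 16 genes with a region, 3 (Kdr, Erg and Runx1) had a shared promoter region, 5 had one in some libraries and 8, among them Pecam1, Cdh5 and Ptprc, had none. The part of these cells in the comparison was not tested. Housekeeping genes had 46 regions, of which 2 (4.35%) were DFL-only, 2 (4.35%) FB-only and 24 (52.2%) shared, and all 14 genes with a region had a shared promoter region.

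**Figure D3:**
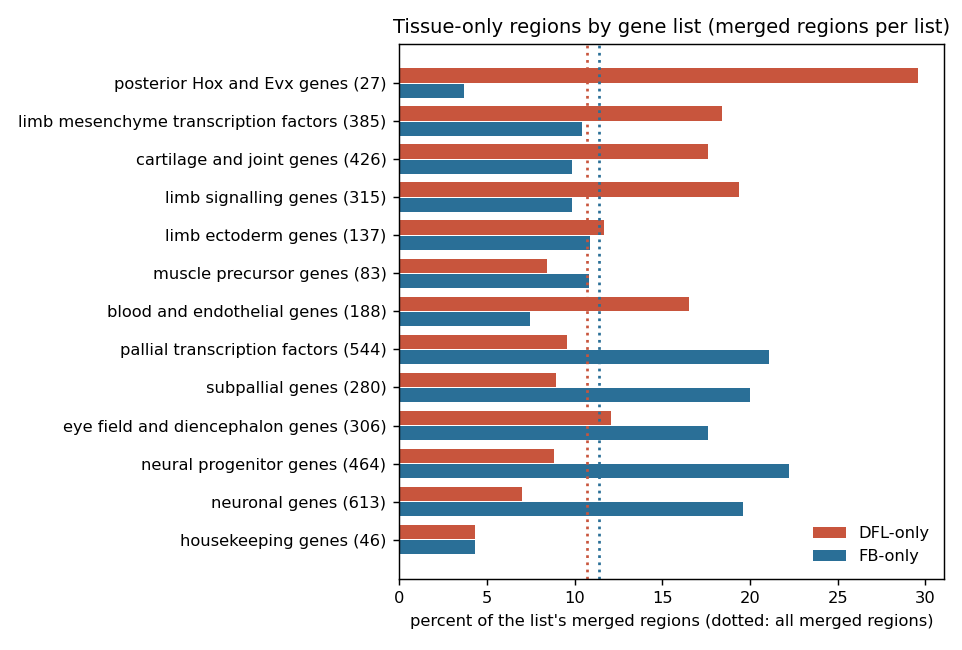
Percent of each gene list's merged regions (number in brackets) that were DFL-only or FB-only. Dotted lines give the shares over all merged regions, 10.7% and 11.4%. The 4 limb lists at the top exceed the DFL line and the 5 forebrain lists exceed the FB line. The blood and endothelial (16.5%), eye field and diencephalon (12.1%) and limb ectoderm (11.7%) lists also exceed the DFL line.

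The median of the mean fold was 7.17 in DFL-only and 7.31 in FB-only regions. The strongest DFL-only region was the promoter of Fgf23 (chr6:127072643-127073225), a hormone of phosphate balance, with a fold of 14.6 and 23.2 in wt DFL and 21.9 and 20.6 in 542 DFL. In FB it was not called in wt replicate 1 and had 2.84, 4.43 and 2.62 in the other libraries, below the lists. The 4 PFL libraries held it at 15.8 to 19.6. Of the 8 strongest DFL-only regions, those near Fgf23, Nphp4, Vmn2r73, Vgll3 and St14 and those in Prkar2b and Vps13b had a fold above 9 in every PFL library, and were thus open in both parts of the forelimb. The region near S1pr1, a receptor of vessel cells (chr3:115407932-115408782), was the one with the lowest PFL values. It had 16.5, 16.4, 17.0 and 20.6 in DFL, no call in FB, and 7.08, 6.18 and 5.54 in PFL with no call in 542 replicate 2.

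At the HoxD locus the promoter region of Hoxd13 (chr2:74667692-74668614) had a fold of 9.78 and 9.55 in wt DFL and of 9.35 and 8.67 in 542 DFL. It was called below the lists at 3.97, 3.83, 3.17 and 4.11 in FB. In PFL, which the rule had not used, it had 4.18, 4.97, 4.78 and 3.40, all below the DFL values. The intergenic DFL-only region 197111 bp from the start of Lnpk (chr2:74380608-74381478), whose stretch is shown above, had a mean fold of 12.22 ± 0.848 (n = 4) in DFL, no call in FB, and 9.55 to 12.4 in PFL. A second intergenic region, 151265 bp from Lnpk on the same side of the cluster (chr2:74426476-74427477), was the fourth strongest FB-only region of the genome compared. Its fold was 19.9, 18.3, 20.9 and 17.9 in FB and 3.52, 2.80 and 4.24 in DFL, with no call in 542 DFL replicate 2 and none in PFL. The side of the cluster that holds limb enhancers thus carried a strong forebrain region as well.

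The strongest DFL-only region of the limb mesenchyme factors lay 129868 bp from Twist1 in an intron of Hdac9 (chr12:34087185-34087948), with 11.4, 13.5, 11.5 and 12.9 in DFL, no call in FB and at most 6.27 in PFL. That of the cartilage genes was intergenic, 148653 bp from Trps1 (chr15:51038673-51039475), with 17.3, 17.9, 15.9 and 18.5 in DFL and 6.43 to 12.1 in PFL. Among limb signalling genes it lay 177071 bp from Fgf9 (chr14:58253223-58254057), with 17.0, 13.7, 13.1 and 13.6 in DFL and 13.2 to 17.0 in PFL.

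Among FB-only regions, those near Pabpc4l (mean fold 20.13 ± 0.430, n = 4), Basp1 (19.75 ± 0.629) and Olig3 (19.58 ± 0.411) were the strongest, and all 8 were intergenic except the one nearest to Olig3, a factor of neural progenitors, which lay in an intron of Gm33056. No PFL library called the 8. Beside the progenitor gene Sox2, the strongest FB-only region lay 238719 bp from its start in an intron of Sox2ot (chr3:34411258-34412187), with 18.3, 15.4, 18.2 and 19.5 in FB and no call in DFL or PFL. For the cartilage list the strongest FB-only region lay 280199 bp from Sox9 (chr11:112501694-112502393), with 17.5, 16.4, 19.6 and 17.0 in FB and no call in either part of the limb. Regions of each kind thus had Sox9 as the nearest gene. The single FB-only region of the posterior Hox list lay 53208 bp from Evx1 (chr6:52366486-52367437), with 7.12, 8.51, 6.33 and 6.62.

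To see which sequences the open regions held, 18 short motifs were counted within 100 bp of the summits of distal regions, those farther than 1 kb from a start. Both strands were searched, and no motif lies wholly within another. Over the distal regions of each library, 15 of 18 motifs had DFL and FB values that did not overlap, each with p = 0.0286 by an exact permutation test, two-sided (n = 4 and 4, adjusted p = 0.0343 over 18 motifs). No smaller p is possible here. Of these, 7 were higher in DFL and 8 in FB. Sizes varied widely, from 1.06-fold for the E-box CAGATG to 4.31-fold for POU.

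In DFL the widest ratio was that of TCGTAAA, a form bound by posterior HOX factors. It was present in 1.05%, 1.02%, 1.09% and 1.07% of distal regions in DFL and in 0.270%, 0.303%, 0.282% and 0.288% in FB, a ratio of 3.71. The second posterior form, CAATAAA, was in 6.80% ± 0.337 (SD, n = 4) of DFL and 2.94% ± 0.0703 of FB regions, a ratio of 2.31. T-box letters AGGTGTGA stood at 1.17% ± 0.0522 and 0.695% ± 0.0226, and TEAD letters GGAATG at 16.7% ± 0.808 and 11.9% ± 0.193. In DFL the TEAD share was 17.4% and 17.3% in wt and 15.9% and 16.1% in 542, and that of CAATAAA 6.49% and 6.52% in wt and 7.04% and 7.13% in 542. Shares of wt and 542 did not overlap for 11 of 18 motifs in DFL and for 11 in FB, and genotype and mapping genome cannot be told apart.

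In FB the widest ratio was that of ATGCAAAT, the octamer bound by POU factors. It was present in 4.33%, 4.26%, 4.30% and 4.13% of FB regions and in 0.987%, 0.978%, 0.977% and 1.01% of DFL regions, a ratio of 4.31. TAATTA, bound by many homeodomain factors, was in 15.8% ± 0.416 of FB and 8.77% ± 0.445 of DFL regions. SOX letters ACAATG were in 14.2% ± 0.278 and 9.07% ± 0.137, RFX letters GTTGCCAT in 2.21% ± 0.161 and 1.32% ± 0.0629, and TAATCC, bound by OTX and PITX factors, in 8.09% ± 0.557 and 5.48% ± 0.0833. The NFI site TTGGCA, AP-1 letters TGANTCA and GLI letters GACCACCCA overlapped between tissues (exact permutation test, adjusted p = 0.182, 0.182 and 0.229). Within each genotype, however, NFI shares were lower in DFL (14.5% and 14.6% against 15.6% and 15.3% in wt, 12.7% and 13.1% against 14.4% and 14.2% in 542), and GLI shares were higher in DFL without overlap. In all, 17 of 18 motifs had the tissues apart on the same side in wt and in 542, with AP-1 as the exception. These within-genotype values are 2 against 2 libraries and were not tested.

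Within the sets the contrasts were wider, as a description. TCGTAAA was in 1.77% of 10065 distal DFL-only regions, 0.234% of 10673 FB-only regions, 0.314% of 9883 shared regions and 0.797% of all 82258 distal merged regions. ATGCAAAT was in 0.606%, 8.21%, 1.62% and 2.80% of the same sets. Letters of part of the CTCF core, CCACNAGG, were in 3.03% of DFL-only and 3.06% of FB-only regions but in 13.1% of shared ones, and those of SP and KLF factors, GGGCGG, in 4.86%, 5.38% and 16.3%. A motif match is a run of letters and not a bound site.

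**Figure D4:**
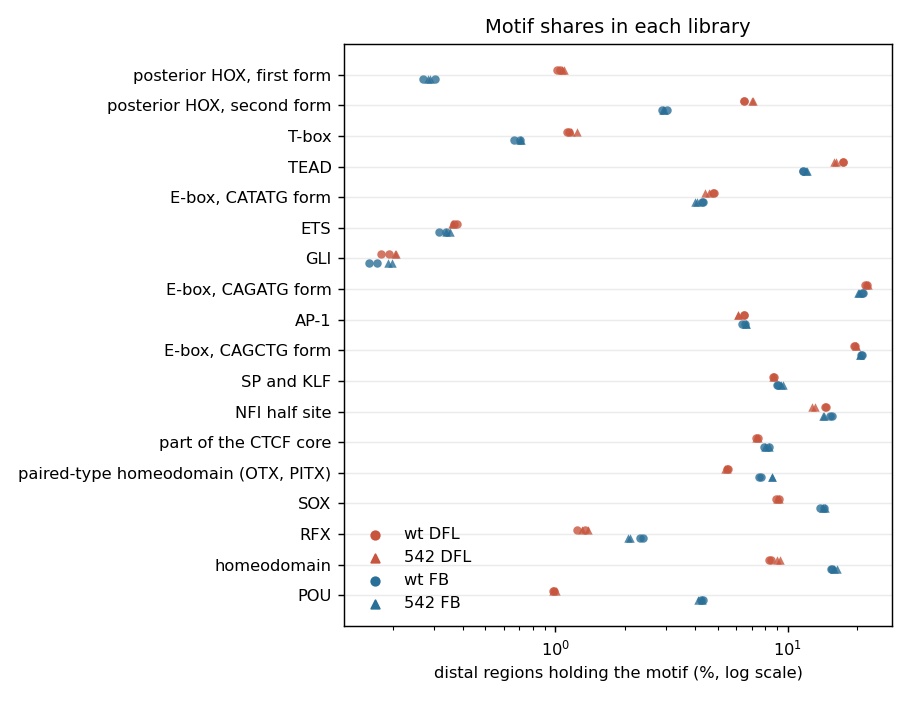
Percent of distal regions (x axis, log scale) that hold each motif within 100 bp of the summit, 1 point per library, with DFL in red, FB in blue, wt as circles and 542 as triangles. Posterior HOX forms stand apart to the right in DFL and POU, homeodomain, RFX and SOX to the right in FB, and NFI, AP-1 and GLI overlap.

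Shared regions had a fold in all 8 libraries, so their strength could be tested. The log2 fold was centred on the median of each library over the shared regions and fitted with limma by genotype and tissue. At an adjusted p under 0.05, 3045 shared regions (14.6%) were higher in DFL and 2209 (10.6%) higher in FB. Before centring, FB libraries had larger values throughout: the median fold of the shared regions was 9.796 to 10.55 in DFL and 11.20 to 12.03 in FB, a median shift of -0.149 (log2, DFL minus FB). Without centring 1488 regions were higher in DFL and 6013 higher in FB, so that the split of calls depends on the scaling and differences are given relative to the library median. Of the 3045 regions called higher in DFL, 1488 were still called so without centring, as were all 2209 called higher in FB. A change of sign was found for 1 of the 3045. Centring moves the difference of every region by the same amount, so few such changes were likely beforehand. Differences were modest. The median absolute difference was 0.158 over all shared regions on the log2 scale, and 296 regions (1.42%) exceeded 1, 205 of them higher and 91 lower in DFL. Distal shared regions were called in both directions at like rates, 16.7% and 16.1%, while promoter regions were called higher in DFL in 12.7% and higher in FB in 5.58%, a split that turned without centring (530 against 2721 promoter regions, and 958 against 3292 distal regions).

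The largest difference in favour of DFL was in an intron region 160537 bp from Gm11361 (chr13:28417380-28418904). Its fold was 11.9, 10.5, 10.5 and 9.96 in DFL and 3.22, 2.45, 3.01 and 2.96 in FB, a log2 difference of 2.07 ± 0.09 (SE, limma adjusted p = 6.00e-05). The promoter of Neurod4, a neuronal bHLH factor, followed with 16.7, 17.0, 18.2 and 15.8 in DFL and 3.91, 5.66, 4.67 and 5.42 in FB, a difference of 1.98 ± 0.13 (limma adjusted p = 0.000117). Regions in an intron 85942 bp from Vegfc, a lymphatic growth factor (1.82 ± 0.11), at the promoter of Edar, a receptor of ectodermal appendages (1.72 ± 0.09), and 54213 bp from Paxip1 (1.67 ± 0.11) completed the 5.

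In favour of FB the largest difference was in an intron 2703 bp from Emilin1 (chr5:30915698-30916359), with a mean of 3.55 ± 0.386 (SD, n = 4) in DFL and 15.9, 14.2, 14.5 and 14.1 in FB, a log2 difference of -1.87 ± 0.09 (limma adjusted p = 6.00e-05). Intergenic regions 143236 bp from Gm12830 (-1.79 ± 0.07), 78589 bp from Asb13 (-1.64 ± 0.08), 307442 bp from Mgat4c (-1.44 ± 0.08) and 38752 bp from Rock2 (-1.36 ± 0.12) came next. DFL and FB libraries did not overlap in any of the 10 regions. Each was called in the same direction under all 12 other scalings, models and left-out libraries tried on the shared regions. The 10 were picked for their size among the calls, so both were likely beforehand. Of all calls, 1452 of 3045 (47.7%) higher in DFL and 1283 of 2209 (58.1%) higher in FB held under all 12.

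**Figure D5:**
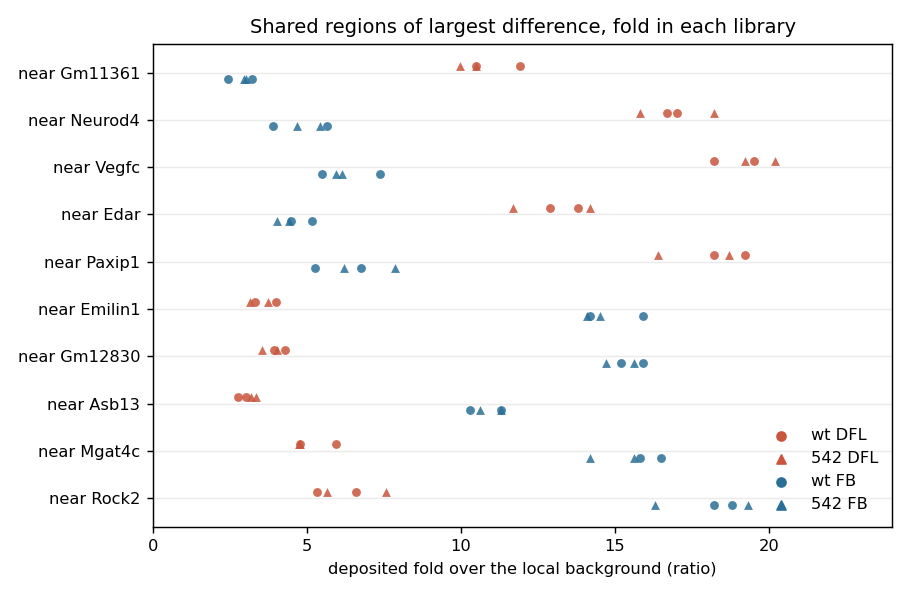
Fold in each library (x axis, ratio over the local background as deposited) at the 5 shared regions per direction with the largest log2 difference, named by the nearest gene, with DFL in red, FB in blue, wt as circles and 542 as triangles. The tissues stand apart in all 10.

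With centring, more shared regions were higher in DFL than in FB in the limb lists together and in the forebrain lists together. Without centring both had more regions higher in FB, as did all shared regions. Of 42 shared regions of limb mesenchyme factors, 16 (38.1%) were higher in DFL and 4 (9.52%) higher in FB, against 14.6% and 10.6% of all shared regions. Without centring they were 10 (23.8%) and 10 (23.8%), where all shared regions had 7.13% and 28.8%, and with quantile normalization 15 and 4. The Twist1 promoter had 10.1, 11.6, 10.8 and 10.4 in DFL and 5.05, 5.14, 4.77 and 4.57 in FB, a log2 difference of 1.31 ± 0.07 (limma adjusted p = 7.28e-05). The promoter of Meox2, a mesenchymal homeobox gene, differed by 0.99 ± 0.10. Promoters of this list that were higher in FB were those of Zfhx4 (-0.67 ± 0.10), Msx2 (-0.49 ± 0.11) and Prrx1 (-0.25 ± 0.07). The call for Prrx1 held under 4 of the 12 other settings. Of the 14 shared promoter regions of the list, 5 (35.7%) were higher in DFL and 3 (21.4%) in FB, against 12.7% and 5.58% of all. Without centring the counts were 3 and 5. In the cartilage list the promoter of Trps1 was higher in FB, by -0.73 ± 0.08. Of 89 shared regions of neuronal genes, however, 27 (30.3%) were higher in DFL and 17 (19.1%) in FB, and without centring 19 (21.3%) and 28 (31.5%). For 70 regions of pallial factors the counts were 20 (28.6%) and 13 (18.6%), and 6 (8.57%) and 17 (24.3%) without centring. The limb lists together had 37 regions (28.2%) higher in DFL and 19 (14.5%) higher in FB of 131. Without centring they had 20 (15.3%) and 38 (29.0%). The forebrain lists had 86 (30.1%) and 44 (15.4%) of 286, and 50 (17.5%) and 77 (26.9%) without centring. With quantile normalization the counts were 36 and 21 for the limb lists and 74 and 46 for the forebrain lists. All shared regions turned as well, from 3045 (14.6%) and 2209 (10.6%) to 1488 (7.13%) and 6013 (28.8%) without centring. The shares higher in FB without centring were thus near that of all shared regions in both groups of lists. Not every list turned, since subpallial genes had 8 and 8 without centring. Whether the lists differ from all shared regions in this was not tested.

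Promoter and distal regions were also counted apart. Among 75 shared promoter regions of the forebrain lists, 26 (34.7%) were higher in DFL and 6 (8.00%) in FB, against 12.7% and 5.58% of all shared promoter regions, while without centring 15 were higher in DFL and 16 (21.3%) in FB, against 4.83% and 24.8%. Their 211 distal regions gave 60 (28.4%) and 38, against 16.7% and 16.1% of all distal shared regions. Without centring they gave 35 (16.6%) and 61 (28.9%), against 9.69% and 33.3%. Besides Neurod4, Gad2, which makes the transmitter GABA, had 9.31, 6.37, 7.46 and 7.84 in DFL and 3.74, 4.47, 4.01 and 3.86 in FB (log2 difference 1.12 ± 0.13). Dlx1, a factor of subpallial and limb development, differed by 0.85 ± 0.13 and Ank3 by 0.82 ± 0.12, all called also without centring. Promoters of Olig2 (-0.72 ± 0.13) and Dmrta2 (-0.71 ± 0.11) were higher in FB. Neurod4 also had 3 FB-only regions nearby and no DFL-only region, so that its shared promoter and its tissue-only regions were in opposite order.

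As a check across genotypes, the difference between tissues was compared between wt and 542 by the interaction of genotype and tissue. No shared region passed (limma, 0 of 20859 at an adjusted p under 0.05). An unadjusted p under 0.05 was found for 1670, a larger share than the 0.05 that chance alone would give. With 2 libraries for each genotype and tissue, the fit could miss differences, and an effect of genotype on the tissue difference is not excluded.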

How the data were processed

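ATAC-seq libraries of distal forelimb, proximal forelimb and forebrain were deposited as peak lists. The authors trimmed adapters with Cutadapt, mapped wt reads with bowtie2 to mm10 and 542 reads to a genome with the insertion, removed alignments of mapping quality under 30 and duplicates, and called peaks with MACS2 in each library alone, with no control. The mapping genome and the genotype cannot be told apart. The deposited fold is a ratio within a library, and the deposited −log10 p-values and −log10 q-values are those of MACS2. The deposited score, a whole-number form of the q-value, was not used.

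Summits of the same region were taken as 1 region, represented by the strongest. Lists were the 50000 highest by q and then fold, after chromosomes had been restricted, since coordinates beyond 75 Mb of chromosome 2 differ between the 2 genomes. Starts were those of protein-coding transcripts of GENCODE M21, and sequences those of GRCm38.p6, which the files' coordinates fit. Depth was estimated from the fold and p-value of each peak. Few libraries (n = 4 per tissue) limit the tests, and replicates were separate pools of embryos. Analysis used Python 3.11.15, R 4.3.3 and limma 3.58.1, and the fits and joins were tested on simulated data. Named were the genes of 13 lists, the 10 genes per direction with the most tissue-only regions, the 8 strongest regions per direction, the strongest region of a list, and the 5 shared regions per direction of largest difference. Promoters of list genes that passed the test, and the last 6 sequences, were named after their values were seen, as were examples within lists. Members, lists and motifs were chosen with earlier results of these data known. Results for some genes are not reported here.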

Additional observations from a re-analysis of the deposited data

Results flagged for a closer look

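In 149 groups of 4 libraries of a tissue (promoter and motif shares, median fold, and the fold of each named region), 7 held a library whose gap to the nearest other exceeded Dixon's 95% limit as a part of the range. Chance alone gives this in about 1 in 20 such groups, and the 7 were spread over 5 libraries. High values were those of 542 DFL replicate 2 at the DFL-only region near S1pr1 (20.6 against 16.4 to 17.0 in the others), of wt DFL replicate 1 at the DFL-only region near Fgf9 (17.0 against 13.1 to 13.7) and at the shared region near Mgat4c (5.95 against 4.75 to 4.78), of 542 FB replicate 1 at the shared region near Isl1 (10.1 against 5.54 to 5.96), and of wt FB replicate 1 at the shared region near Hes1 (6.36 against 4.19 to 4.45). Low values were those of wt FB replicate 1 at the FB-only region near Ptch1 (11.3 against 12.6 to 12.7) and of 542 DFL replicate 1 at the shared region near Bcl11b (8.14 against 10.0 to 10.3). All are differences of fold at single regions, and no share or median over a whole library stood apart in this way. In no promoter share, motif share or median fold did DFL lie wholly above FB in wt and wholly below it in 542, or the reverse.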

How the results depend on the processing

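Of 131 values under alternatives for 10 results, 112 kept their direction, their side of the threshold and, for counts, stayed within 1.5 times, among them all 64 with a library left out. All deposited regions gave 18567 DFL-only and 18289 FB-only regions, and the 20000 strongest gave 3043, 3309 and 11192 shared. Merged from wt libraries alone, 15994 regions were DFL-only. The part of wt DFL-only regions with the same pattern in 542 was 54.9% and 63.8% under these 2 list lengths, and that of wt FB-only regions 61.3% and 69.1%. For shared strength, all deposited regions gave 5509 higher in DFL and 4127 in FB, the 20000 strongest 1281 and 1001, and no centring 1488 and 6013. The difference in promoter share turned to -0.281, -0.114 and -0.1 percentage points with all deposited regions, the 20000 strongest and the starts of all genes. It rose to 0.584 with a fold of at least 5 and 2.52 with a −log10 q of at least 10, where list lengths differ (exact permutation p = 0.457 and 0.114). With a block for replicate number within genotype, 2605 regions were higher in DFL and 1977 in FB. Deviations of same-numbered DFL and FB libraries from their group means had a correlation of 0.0152 in wt and 0.00658 in 542. With 2 replicates per group this is a single contrast in each tissue and genotype. Whether the numbers pair libraries of the same embryos cannot be told from it. A fold set within each library cannot separate a weaker region from a shallower or noisier library, and a region missing from a list may be open below it.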
